A study of Mus musculus with 15 samples.

Results

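The genes of the G2 phase and of mitosis were followed in mouse blood stem and progenitor cells that carried a HOXB4 vector or a GFP vector. A list of 40 genes was taken, from the proliferation marker Mki67 to the mitotic transcription factor Foxm1, and each gene was read from the probe set that carries its symbol alone and has the highest mean over 15 arrays. Of the 40 genes, 39 were measured, out of 17097 named genes on the array. The gene left without a value is Ccnb1, for which no probe set carries a single symbol. The HOXB4 cells came from marrow of female C57Bl/6 mice treated with 5-fluorouracil (5-FU), transduced with MSCV-HOXB4-ires-YFP and transplanted into lethally irradiated mice. The GFP cells were made in the same way with MSCV-ires-GFP, so 5-FU, retroviral transduction and transplantation are shared by all groups. Transduced LSK cells were sorted by their fluorescence and used without culture. LSK stands for lineage-negative, Sca-1+ and Kit+, the marrow fraction in which blood stem cells and early progenitors are found. Arrays were run on HOXB4 cells sorted 6, 12 and 20 weeks after the transplant and on GFP cells sorted after 12 and 20 weeks, 3 for each of 5 groups. The fluorescent gate restricts both to transduced cells, and the vectors differ in their fluorescent protein as well as in HOXB4.

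Before a cell divides, cyclin B and its kinase Cdk1 switch on in G2, the chromosomes condense, a spindle attaches to each kinetochore, and a checkpoint holds the cell until all are attached. The anaphase-promoting complex, a ubiquitin ligase, then marks cyclins and securin for destruction, and the cell splits. Transcription of these genes is largely confined to late S phase, G2 and mitosis, and is driven by the MuvB complex with B-Myb and FOXM1 acting at a promoter element called the cell cycle genes homology region (CHR). Resting stem cells carry little of these transcripts and cycling progenitors much, which is why the list is commonly read as a measure of cycling.

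That shared promoter element is visible in the sequences, and the stretches below are shown because they belong to genes whose levels are described later. Each is the 120 bases just before the gene start in RefSeq, assembly GRCm38.p6, read 5′ to 3′ along the gene. Capitals mark the CHR core TTTGAA and the NF-Y box core CCAAT, each on either strand, so that TTCAAA and ATTGG are the same motifs on the other strand.
Plk1 (chr7:122159315-122159434, plus strand): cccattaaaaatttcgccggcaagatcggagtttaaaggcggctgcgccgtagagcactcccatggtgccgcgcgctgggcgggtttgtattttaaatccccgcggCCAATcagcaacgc
Cdk1 (chr10:69352913-69353032, minus strand): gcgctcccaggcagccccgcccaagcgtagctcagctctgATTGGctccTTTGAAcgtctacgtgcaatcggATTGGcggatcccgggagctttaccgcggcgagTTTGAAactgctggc
Cdc20 (chr4:118437344-118437463, minus strand): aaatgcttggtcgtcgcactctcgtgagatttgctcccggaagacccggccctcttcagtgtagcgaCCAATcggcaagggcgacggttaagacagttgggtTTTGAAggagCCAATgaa
Ube2c (chr2:164769809-164769928, plus strand): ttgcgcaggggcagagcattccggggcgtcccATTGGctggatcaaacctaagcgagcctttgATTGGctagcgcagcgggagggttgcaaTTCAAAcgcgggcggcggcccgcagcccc
Mki67 (chr7:135716380-135716499, minus strand): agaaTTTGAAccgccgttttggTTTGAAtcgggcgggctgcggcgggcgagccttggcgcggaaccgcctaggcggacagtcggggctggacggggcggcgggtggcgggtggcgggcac
Birc5 (chr11:117849117-117849236, plus strand): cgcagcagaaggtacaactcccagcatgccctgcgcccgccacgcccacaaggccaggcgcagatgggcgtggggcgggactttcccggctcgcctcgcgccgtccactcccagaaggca

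In Cdk1 the CHR core stood at 2 places in this stretch, beginning 71 and 15 bases before the start, and in Cdc20 and Ube2c once, 18 and 29 bases before it. In Plk1 the CHR core lay on the other side of the start, beginning at base 31 of the gene, and so outside the stretch printed. The stretch of Birc5 held neither motif, which says only that these letters are not in it. Over windows of 250 bases before to 50 after the start, 32 of the 39 measured genes had an entry in the RefSeq table, and 23 of them (71.88%) held TTTGAA, against 20.23% of all 27025 genes with a window. In 21 of the 23 the motif lay within 50 bases of the start. CCAAT stood in 25 of the 32 (78.12%), against 41.06% of all genes, and both motifs in 21 (65.62%), against 7.97%. Some neighbouring mitotic lists held TTTGAA often as well, in 61.29% of 31 other spindle, entry and cytokinesis genes, 8 of 16 genes of cohesin, condensin and separase, and 44.44% of 27 other kinetochore genes. Others held it less often, in 21.43% of 14 genes of the anaphase-promoting complex and 27.27% of 11 regulators of mitotic promoters. Replication genes, which peak earlier in the cycle, held TTTGAA in 17.14% and CCAAT in 57.14% of 35 genes with a window. A motif match describes the sequence and shows no binding.

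**Figure D1:**
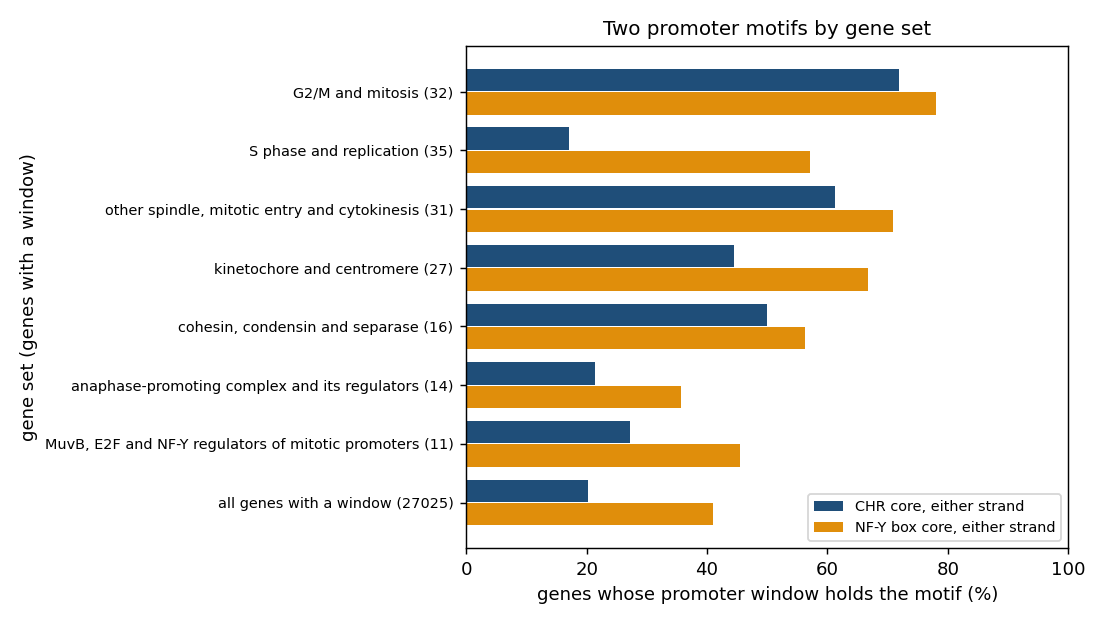
Share of genes (%) whose promoter window, 250 bases before to 50 after the start, holds the CHR core or the NF-Y box core on either strand, for each gene set, with the number of genes with a window in brackets. The G2/M and mitosis genes have the CHR core in 71.88% of those with a window, against 20.23% of all genes, 61.29% of the other spindle, entry and cytokinesis genes and 17.14% of the replication genes.

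The values are the authors' log2 RMA signals, on which a difference of 1 is a 2-fold change, and levels of different genes are not comparable. Array medians lay between 5.247 and 5.397. Replicate arrays correlated between 0.967 and 0.994, and arrays of different groups between 0.948 and 0.987. The signal of Gapdh at its 3′ end exceeded that at its 5′ end, which can be a sign of RNA shortening, by 3.76 on HOXB4 6-week replicate 1. On HOXB4 6-week replicates 2 and 3 it did so by 1.68 and 1.71, and on HOXB4 20-week replicate 3 by 2.02. On the remaining arrays the excess was 0.81 to 1.39. For actin the 3′ minus 5′ signal was negative on every array, at -0.32 on HOXB4 6-week replicate 1 and -1.02 to -0.54 on the others. Nothing in the labels says that the arrays of a group come from separate mice. The p-values therefore cover the variation among these arrays alone, and that may be technical. Kit, which the gate selects, averaged 8.07 in HOXB4 cells and 8.70 in GFP cells at 12 weeks (log2 difference -0.63 ± 0.13 SE, limma, adjusted p = 0.01405), and Ly6a, which encodes Sca-1, was not measured. Markers of B cells, which a lineage-negative gate should exclude, stood well above the array median on most arrays, as given below. In sorted populations of this kind, fewer cycling cells and less mitotic RNA per cycling cell cannot be told apart.

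Across the 5 groups, HOXB4 cells at 6 weeks had the lowest mean in 27 of the 39 genes and the highest in 0. The highest mean fell to HOXB4 cells at 12 weeks in 14 genes, to HOXB4 cells at 20 weeks in 8, to GFP cells at 12 weeks in 11 and to GFP cells at 20 weeks in 6. The genes lowest at 6 weeks included those of entry, checkpoint, centromere, spindle, cytokinesis and mitotic exit, but neither Mki67 nor Top2a. In 35 of the 39 genes the lowest of the 6-week arrays was replicate 3.

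**Figure D2:**
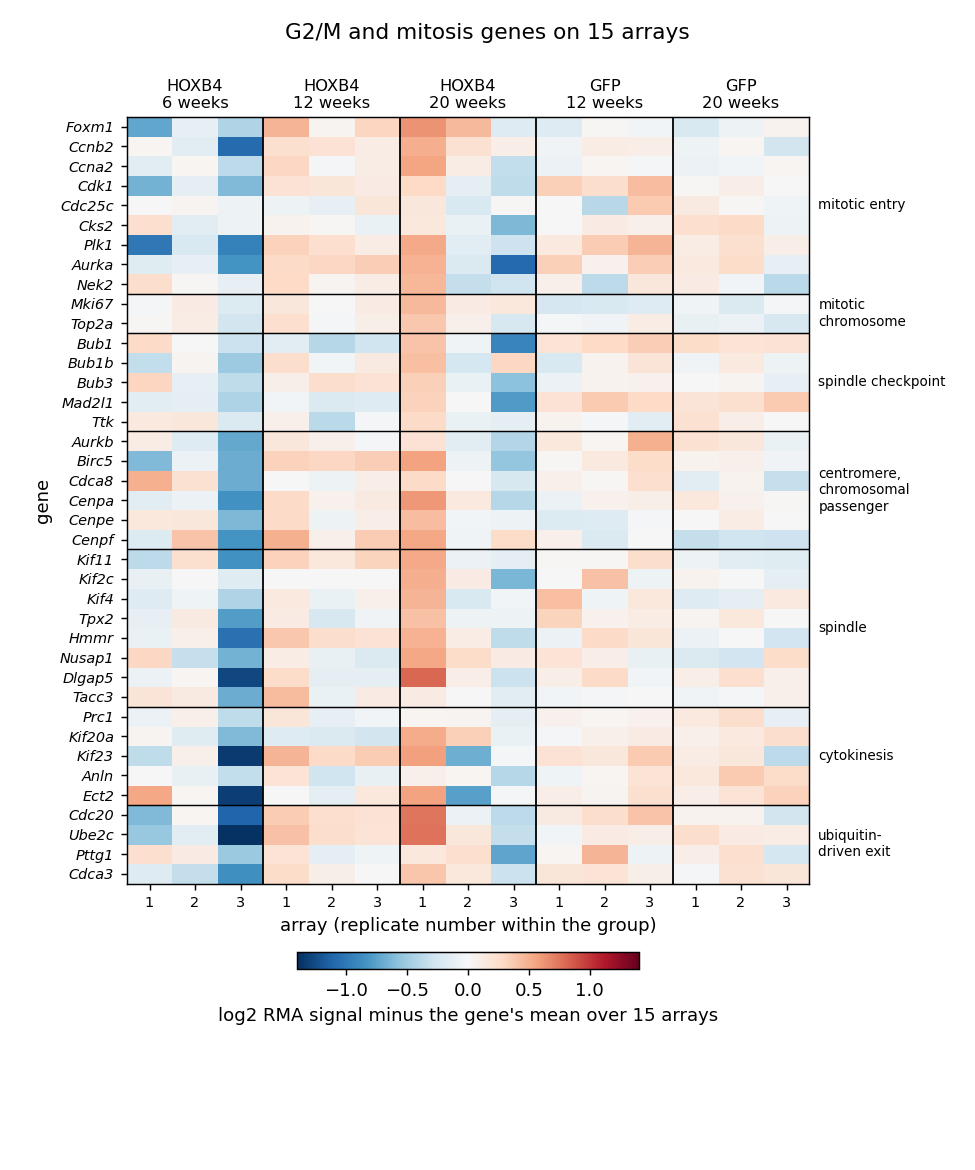
Log2 RMA signal of the 39 measured G2/M and mitosis genes (rows, grouped by role) on the 15 arrays (columns, by group and replicate), each minus the gene's mean over 15 arrays. Blue dominates HOXB4 6-week replicate 3, which was the lowest of its group in 35 genes, and red dominates HOXB4 20-week replicate 1, the highest of its group in 37.

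The first question was whether HOXB4 cells carry more or less mitotic transcript than GFP cells at the same time. At 12 weeks the answer split evenly, with 19 genes higher and 20 lower in HOXB4 cells and a median log2 difference of 0.00 (-0.0019), beside -0.0155 over all genes. The 7992 genes at least as bright as the dimmest member, a set formed after the data were seen, had a median of -0.11, and 32.4% of them were higher in HOXB4 cells. No member of the list passed the test (limma, Benjamini-Hochberg over 17097 genes, adjusted p under 0.05), where 4.02% of all genes did, 1.82% as higher and 2.2% as lower in HOXB4 cells. An unadjusted p under 0.05 was reached by 2 members, 1 in each direction. The 3 arrays of each group stood apart in 6 members higher and 4 lower in HOXB4 cells, out of 39, against 14.4% and 20.5% of all genes.

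By role, the 12-week values scattered around 0. Mki67, the nuclear protein that coats mitotic chromosomes and marks cycling cells, read 11.73, 11.57 and 11.68 in HOXB4 cells and 11.33, 11.36 and 11.39 in GFP cells. Every HOXB4 array lay above every GFP array, by a mean of 0.30 ± 0.12 on the log2 scale (SE, 1.23-fold, adjusted p = 0.1697, limma). The adjusted p of Mki67 was 0.03041 with array weights and lay between 0.2371 and 0.3757 with 1 array left out. Top2a, the topoisomerase that untangles sister chromatids, differed by 0.10 ± 0.14. Foxm1 read 8.23, 7.80 and 8.06 in HOXB4 cells and 7.58, 7.77 and 7.72 in GFP cells, a difference of 0.34 ± 0.20 (adjusted p = 0.3695). The 9 genes of mitotic entry, among them Plk1 and the Cdk1 partners, ranged from -0.18 to 0.34.

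The spindle checkpoint held the largest negative differences at 12 weeks. Bub1, a checkpoint kinase of the kinetochore, read 6.80, 6.54 and 6.67 in HOXB4 cells and 7.13, 7.23 and 7.28 in GFP cells, without overlap, a difference of -0.54 ± 0.24 (adjusted p = 0.2302). Mad2l1, which blocks Cdc20 while kinetochores are unattached, read 8.57, 8.41 and 8.43 in HOXB4 cells and 8.81, 8.98 and 8.89 in GFP cells, also without overlap, a difference of -0.42 ± 0.21 (adjusted p = 0.2752). Both passed in a fit on the 12-week arrays alone, with adjusted p of 0.007528 for Bub1 and 0.0187 for Mad2l1 (limma). They also passed with array weights, at 0.02488 and 0.04082, and under no other setting tried. Calls over all genes at 12 weeks numbered 308 to 2791 over the settings other than leaving out 1 array, against 688 in the main fit. Of the other 3 checkpoint genes, Bub1b (0.11) and Bub3 (0.17) were higher in HOXB4 cells and Ttk (-0.06) was lower. The kinesins and spindle proteins ranged from -0.21 to 0.18, the cytokinesis genes from -0.27 to 0.13, and the genes of ubiquitin-driven exit from -0.14 to 0.23.

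At 20 weeks the balance was again close to even, with 21 genes higher and 18 lower in HOXB4 cells and a median of 0.03, beside 0.02 over all genes and -0.05 over the bright genes, of which 42.9% were higher. No member passed, where 8.95% of all genes did, 3.77% as higher and 5.18% as lower in HOXB4 cells, and 3 members reached an unadjusted p under 0.05, 2 higher and 1 lower. The arrays stood apart in 3 members higher and 1 lower in HOXB4 cells, against 12.9% and 12.5% of all genes.

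Mki67 again lay higher, at 12.02, 11.69 and 11.72 in HOXB4 cells and 11.52, 11.37 and 11.54 in GFP cells, a difference of 0.33 ± 0.12 (1.26-fold, adjusted p = 0.09777, limma). With quantile normalisation of the deposited values its adjusted p was 0.03523. Calls over all genes at 20 weeks numbered 715 to 2408 over the settings other than leaving out 1 array, against 1530 in the main fit. Cenpf, a kinetochore protein made in G2, read 9.06, 8.47 and 8.78 in HOXB4 cells and 8.19, 8.24 and 8.22 in GFP cells, a difference of 0.56 ± 0.24 (adjusted p = 0.1797). All 3 HOXB4 arrays were above the GFP arrays, but they covered a far wider range. Anln, the actin-binding protein of the cleavage furrow, read 6.63, 6.58 and 6.16 in HOXB4 cells and 6.70, 6.92 and 6.81 in GFP cells, a difference of -0.36 ± 0.15 (adjusted p = 0.1828).

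The checkpoint genes Bub1 and Mad2l1 kept a negative difference at 20 weeks, of -0.40 ± 0.24 and -0.41 ± 0.21, though single arrays now overlapped. Of the 8 spindle genes 7 were higher in HOXB4 cells, by at most 0.38, and of the 5 cytokinesis genes 4 were lower. These values moved with single HOXB4 replicates. Without replicate 1 the median difference of the list was -0.19, with 30 of 39 genes lower and Mad2l1 called (adjusted p = 0.04626), and without replicate 3 it was 0.16, with 29 higher and Foxm1 called (adjusted p = 0.04974). Over all genes the calls with 1 array left out ranged from 798 to 1585, against 1530 in the main fit.

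**Figure D3:**
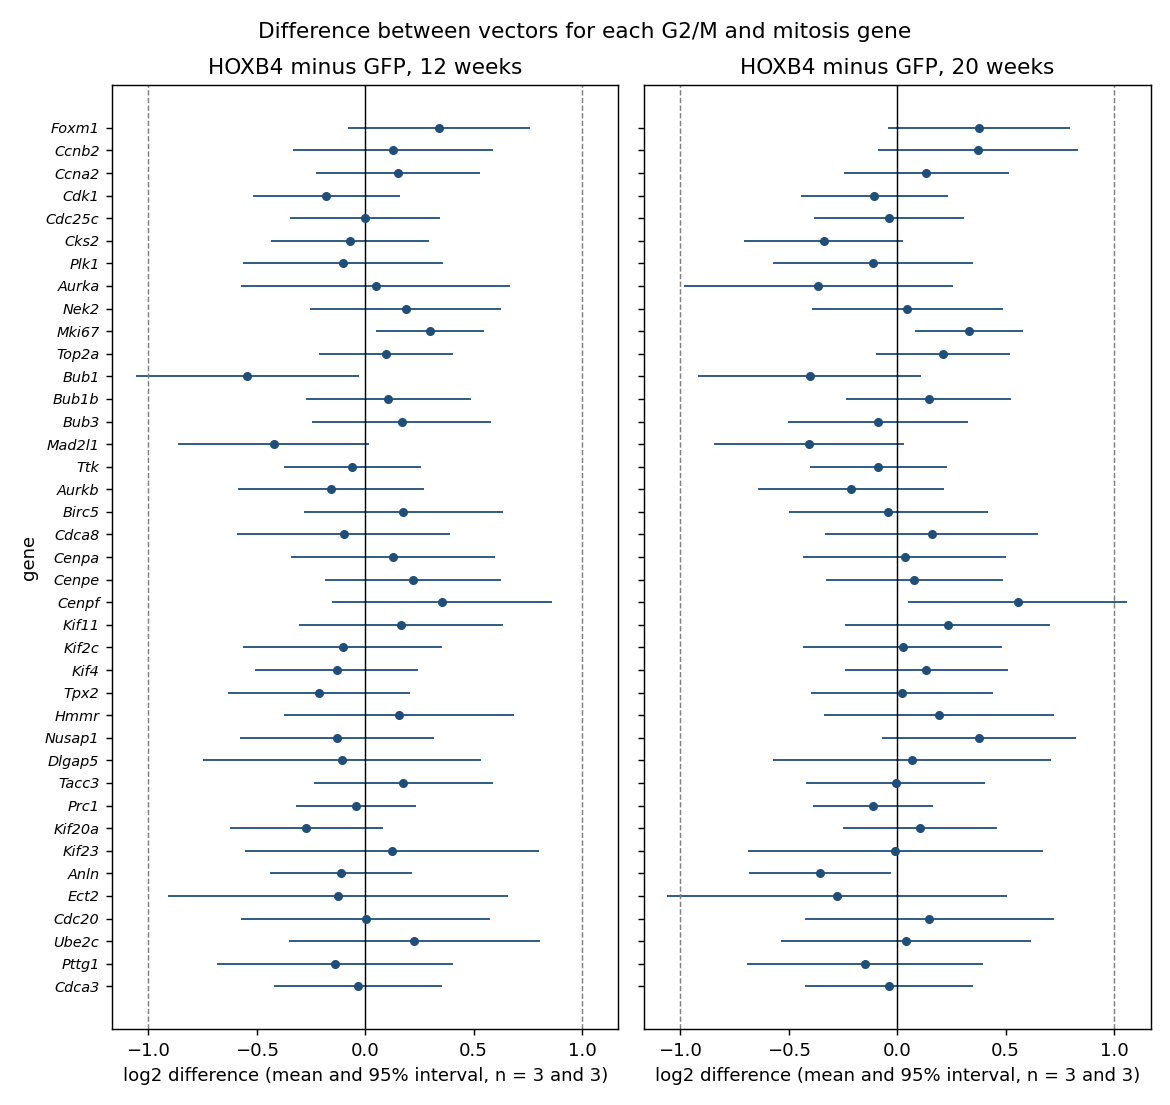
Log2 difference of HOXB4 minus GFP cells for each measured gene at 12 weeks (left) and 20 weeks (right), with 95% intervals from the 5-group fit, n = 3 and 3 arrays; the solid line is 0 and the dashed lines are 2-fold. At both times the points lie on either side of 0 and no member passed the test.

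Among the regulators of entry and the passenger complex, Ccna2, the cyclin of S phase and G2, differed by 0.15 ± 0.18 at 12 weeks and 0.14 ± 0.18 at 20 weeks. Cks2, a small subunit of cyclin-dependent kinase complexes, differed by -0.07 ± 0.17 at 12 weeks and -0.34 ± 0.17 at 20 weeks. Aurkb, the kinase of the passenger complex, differed by -0.16 ± 0.20 and -0.21 ± 0.20 at these times, and Birc5 by 0.18 ± 0.22 and -0.04 ± 0.22. None of these 4 passed, with adjusted p from 0.2644 to 0.9433 over both times.

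The intervals bound what these arrays leave possible, with 1 spread per gene shared by all 5 groups. That spread was unequal. The median SD of a member was 0.36, 0.12 and 0.37 in HOXB4 cells at 6, 12 and 20 weeks. In GFP cells it was 0.11 and 0.10 at 12 and 20 weeks. Intervals at 12 weeks thus draw on wider-spread arrays outside the comparison, and those with 6-week or 20-week HOXB4 cells draw on narrower ones. At 12 weeks the 95% interval of 38 of the 39 genes lay within a 2-fold change in either direction, and at 20 weeks that of 37. Within 1.5-fold lay 18 intervals at 12 weeks and 20 at 20 weeks, and the median interval reached 0.44 to either side on the log2 scale. Whether the vector effect itself changed between times was tested as the difference of both effects. No member passed there, where 0.509% of all genes did, 0.123% upward and 0.386% downward, and 0 reached an unadjusted p under 0.05. The differences of effects ranged around a median of -0.01, and the median interval reached 0.62 to either side.

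The second question was how the HOXB4 cells changed with time, starting from 6 weeks, for which GFP cells were not analysed here. At 12 weeks the HOXB4 cells read higher than at 6 weeks in 36 of the 39 genes, with a median log2 difference of 0.26, beside 0.01 over all genes. Over the 7992 bright genes the median was 0.10, and 63.1% were higher. Plk1 rose and was the sole member to pass the test, where 1.57% of all genes did, of which most rose (1.25% of all genes higher and 0.316% lower at 12 weeks). An unadjusted p under 0.05 was reached by 15 members, all higher at 12 weeks. The arrays stood apart in 12 members higher and 0 lower at 12 weeks, against 12.8% and 8.36% of all genes.

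Plk1, the polo-like kinase that drives mitotic entry and centrosome maturation, read 7.84, 7.76 and 7.63 at 12 weeks and 6.52, 7.30 and 6.57 at 6 weeks. All 12-week arrays lay above all 6-week arrays. The difference was 0.94 ± 0.22 (1.92-fold, adjusted p = 0.04446, limma). At 20 weeks Plk1 read 8.05, 7.36 and 7.23, and in GFP cells it averaged 7.84 ± 0.17 at 12 weeks and 7.66 ± 0.07 at 20 weeks (SD, n = 3), so that the 6-week HOXB4 cells had the lowest mean. Its adjusted p lay between 0.03441 and 0.1302 under the other settings tried. Without HOXB4 6-week replicate 2 it was 0.005887, and without any other single array of the comparison between 0.09429 and 0.1551.

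Other members with large differences at 12 against 6 weeks did not pass the test and came from several roles. Ube2c, the ubiquitin-conjugating enzyme of the anaphase-promoting complex, read 11.23, 11.06 and 11.01 at 12 weeks and 10.28, 10.67 and 9.43 at 6 weeks, a difference of 0.97 ± 0.27 (adjusted p = 0.07908). Cdc20, its activator and the checkpoint's target, read 8.04, 7.92 and 7.89 at 12 weeks and 7.07, 7.71 and 6.58 at 6 weeks, a difference of 0.83 ± 0.27 (adjusted p = 0.1248). Cdk1, the kinase that starts mitosis, read 8.79, 8.75 and 8.69 at 12 weeks and 7.93, 8.45 and 7.96 at 6 weeks, a difference of 0.63 ± 0.16 (adjusted p = 0.06194). In each of these 3 genes the 12-week arrays sat close together above a wide spread at 6 weeks.

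Birc5, the survivin subunit of the chromosomal passenger complex, differed by 0.78 ± 0.22 (adjusted p = 0.07757), and Kif23, a kinesin of the midbody, by 0.91 ± 0.32 (adjusted p = 0.1549). By class, 8 of 9 entry genes, all 6 centromere and passenger genes, all 8 spindle genes, all 5 cytokinesis genes and all 4 exit genes were higher at 12 weeks, with class medians between 0.13 and 0.70. The checkpoint genes were mixed, 3 higher and 2 lower, with Bub1 at -0.26 ± 0.24. Mki67 differed by 0.12 ± 0.12, less than the median of the list.

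One array carried much of this difference. Without HOXB4 6-week replicate 3 the median difference of the list at 12 against 6 weeks was 0.05, with 25 genes higher and 14 lower and 0 called. Without HOXB4 6-week replicate 2, 9 members passed, namely Cdk1, Plk1, Cdc20, Birc5, Kif11, Kif23, Cenpf, Ube2c and Foxm1, all higher at 12 weeks, and without any other single array of the comparison 0 did.

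**Figure D4:**
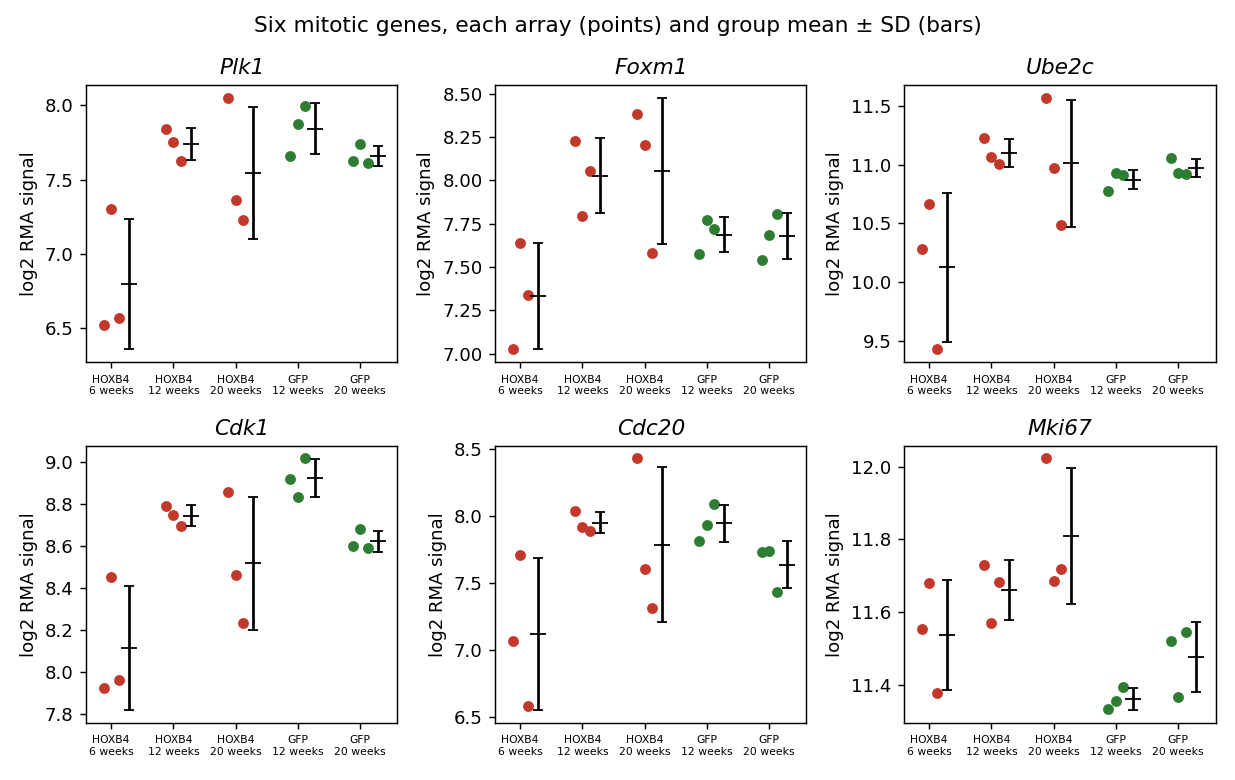
Log2 RMA signal of Plk1, Foxm1, Ube2c, Cdk1, Cdc20 and Mki67 on every array (red, HOXB4 cells at 6, 12 and 20 weeks; green, GFP cells at 12 and 20 weeks), with the group mean and SD as black bars, n = 3. The 6-week and 20-week HOXB4 arrays are widely spread, while the 12-week HOXB4 arrays and the GFP arrays lie close together.

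At 20 weeks the HOXB4 cells read higher than at 6 weeks in 32 of 39 genes, with a median of 0.27, beside 0.00 over all genes and 0.09 over the bright genes, of which 62.1% were higher. This comparison and the one above use the same 6-week arrays, so their similarity is not independent. Foxm1 rose and was the sole member to pass, where 4.66% of all genes did, 3.3% as higher and 1.36% as lower at 20 weeks. In all, 13 members reached an unadjusted p under 0.05, all higher at 20 weeks. The arrays stood apart in 2 members higher and 0 lower at 20 weeks, against 9.31% and 8.85% of all genes. Foxm1 read 8.38, 8.21 and 7.58 at 20 weeks and 7.03, 7.64 and 7.34 at 6 weeks. The lowest 20-week array lay below the highest 6-week array, and the difference was 0.72 ± 0.20 (1.65-fold, adjusted p = 0.04962, limma).

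That call rests on 1 probe set of Foxm1. Its 3 other probe sets differed by 0.12, 0.11 and -0.02, and the mean of all 4 by 0.23 (adjusted p = 0.4937). The call was also lost in a fit on the compared groups (adjusted p = 0.3132) and with quantile normalisation, no moderation, array weights, a variance trend or all named probe sets tested (adjusted p from 0.05243 to 0.129), and it held with the dimmest 1 in 3 genes removed or with median centring. Without HOXB4 6-week replicate 2 or HOXB4 20-week replicate 3 its adjusted p was 0.02452 or 0.01403, and without each of the other 4 arrays of the comparison between 0.08996 and 0.1483. For the list, the median without HOXB4 6-week replicate 3 was 0.08 and without HOXB4 20-week replicate 1 it was 0.09. The number of members called was 7 without HOXB4 6-week replicate 2, 5 without HOXB4 20-week replicate 3, 3 without HOXB4 6-week replicate 1 and 0 without each of the other 3 arrays. Over all genes the calls with 1 array left out ranged from 397 to 1116, against 796 in the main fit. Ube2c, at 0.88 ± 0.27 (adjusted p = 0.07671), Plk1, at 0.75 ± 0.22 (adjusted p = 0.06383), and the B-type cyclin Ccnb2, at 0.67 ± 0.22 (adjusted p = 0.09212), did not pass.

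Between 12 and 20 weeks neither vector showed a call. In HOXB4 cells 13 members were higher and 26 lower at 20 than at 12 weeks, with a median of -0.03 beside -0.01 over all genes, and 0 passed, where 0.252% of all genes did, 0.0643% as higher and 0.187% as lower at 20 weeks. The arrays stood apart in 2 members higher and 0 lower at 20 weeks, against 8.49% and 10.7% of all genes. The member with the largest increase was Kif20a, a kinesin of the central spindle, which read 9.19, 9.01 and 8.58 at 20 weeks and 8.48, 8.47 and 8.42 at 12 weeks. Its arrays stood apart, by 0.47 ± 0.17 (adjusted p = 0.2859), and it was the one member with an unadjusted p under 0.05. The largest decrease was that of Aurka, the kinase of the spindle poles, at -0.57 ± 0.29 (adjusted p = 0.4964), where replicate 3 at 20 weeks read 6.81 and the other arrays at that time 8.38 and 7.70.

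In GFP cells 14 members were higher and 25 lower at 20 than at 12 weeks, with a median of -0.05 beside -0.04 over all genes, and 0 passed by limma, where 2.37% of all genes did, 1.23% as higher and 1.14% as lower at 20 weeks. None reached an unadjusted p under 0.05. The arrays stood apart in 1 member higher and 5 lower at 20 weeks, against 8.04% and 14.1% of all genes. The 95% intervals of all 39 members lay within 2-fold. Cdk1 read 8.60, 8.68 and 8.59 at 20 weeks and 8.92, 8.83 and 9.02 at 12 weeks, without overlap, a difference of -0.30 ± 0.16 (adjusted p = 0.4623). Cdc20 differed by -0.31 ± 0.27, the largest decrease of the list in these cells.

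Within groups the genes of the list moved together from array to array. In HOXB4 cells at 6 weeks replicate 3 was the lowest of the group in 35 of 39 genes, with a median deviation from the group mean of -0.36. In HOXB4 cells at 20 weeks replicate 1 was the highest in 37 genes and replicate 3 the lowest in 30, with median deviations of 0.34 and -0.30. The median range over the 3 arrays of a group was 0.68, 0.23 and 0.69 in HOXB4 cells at 6, 12 and 20 weeks, and 0.21 and 0.19 in GFP cells at 12 and 20 weeks. The widest member at 6 weeks was Ect2, an exchange factor that starts cytokinesis, at 8.20, 7.69 and 6.35. In 20-week HOXB4 cells it was Aurka.

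At 6 and 20 weeks this spread in HOXB4 cells was wider than that of genes at large. The median SD of a member was 0.36 in HOXB4 cells at 6 weeks and 0.37 at 20 weeks, beside 0.20 and 0.18 over all genes. At 12 weeks it was 0.12 in HOXB4 cells beside 0.11 over all genes, and in GFP cells it was 0.11 and 0.10 at 12 and 20 weeks, beside 0.13 and 0.14. On HOXB4 6-week replicate 3 the genes at least as bright as the dimmest member deviated by a median of -0.10, against the -0.36 of the list. The same arrays stood out in neighbouring lists. The mean of the other spindle, entry and cytokinesis genes in HOXB4 cells was 7.61, 7.62 and 7.16 at 6 weeks and 7.90, 7.60 and 7.45 at 20 weeks. That of the cohesin, condensin and separase genes was 8.42, 8.34 and 7.91 at 6 weeks and 8.53, 8.30 and 8.26 at 20 weeks, and the kinetochore genes had the same lowest array at 6 weeks and the same highest at 20 weeks.

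Markers of some other cells moved with the same arrays. The mean log2 signal of 7 B cell markers in HOXB4 cells was 7.92, 8.75 and 5.93 at 6 weeks, 9.28, 8.71 and 9.30 at 12 weeks and 10.10, 9.24 and 9.12 at 20 weeks. In GFP cells it was 5.69 to 6.08 at 12 weeks and 6.96 to 8.89 at 20 weeks. The array with the lowest B cell signal at 6 weeks was replicate 3 and the one with the highest at 20 weeks was replicate 1, the same arrays that were lowest and highest for the mitosis genes. At 12 weeks all 7 B cell markers were called higher in HOXB4 than in GFP cells, and at 20 weeks 1 was, Vpreb3.

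The mean signal of 7 markers of granulocyte-monocyte progenitors in HOXB4 cells was 8.99, 9.77 and 9.15 at 6 weeks, 8.51, 8.75 and 8.94 at 12 weeks and 8.70, 7.81 and 8.06 at 20 weeks. In GFP cells it was 10.31 to 10.48 at 12 weeks and 10.51 to 11.20 at 20 weeks. These markers, granule protease genes such as Elane and Ctsg among them, were called lower in HOXB4 cells in 6 of 7 at 12 weeks and 7 of 7 at 20 weeks. The mean of 8 mature neutrophil markers in HOXB4 cells was 7.42, 7.21 and 4.89 at 6 weeks, 8.09, 8.63 and 8.67 at 12 weeks and 7.82, 6.44 and 7.14 at 20 weeks. In GFP cells it was 6.55 to 7.42 at 12 weeks and 9.65 to 9.74 at 20 weeks. All 8 were higher in HOXB4 cells at 12 against 6 weeks, with a median of 2.55 and 1 called, and at 20 weeks 7 of 8 were called lower in HOXB4 cells against GFP cells. The mean of 3 eosinophil markers in HOXB4 cells was 6.04, 6.62 and 5.05 at 6 weeks, 5.62 to 5.92 at 12 weeks and 7.77, 4.74 and 4.45 at 20 weeks, against 7.36 to 8.97 at 12 weeks and 7.99 to 9.12 at 20 weeks in GFP cells. HOXB4 6-week replicate 3 was the lowest and HOXB4 20-week replicate 1 the highest of their groups for both of these lists too. The Gapdh 3′ excess given above was highest on the HOXB4 6-week arrays and HOXB4 20-week replicate 3. The part of these cell types, or of that excess, in the mitosis values was not tested.

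**Figure D5:**
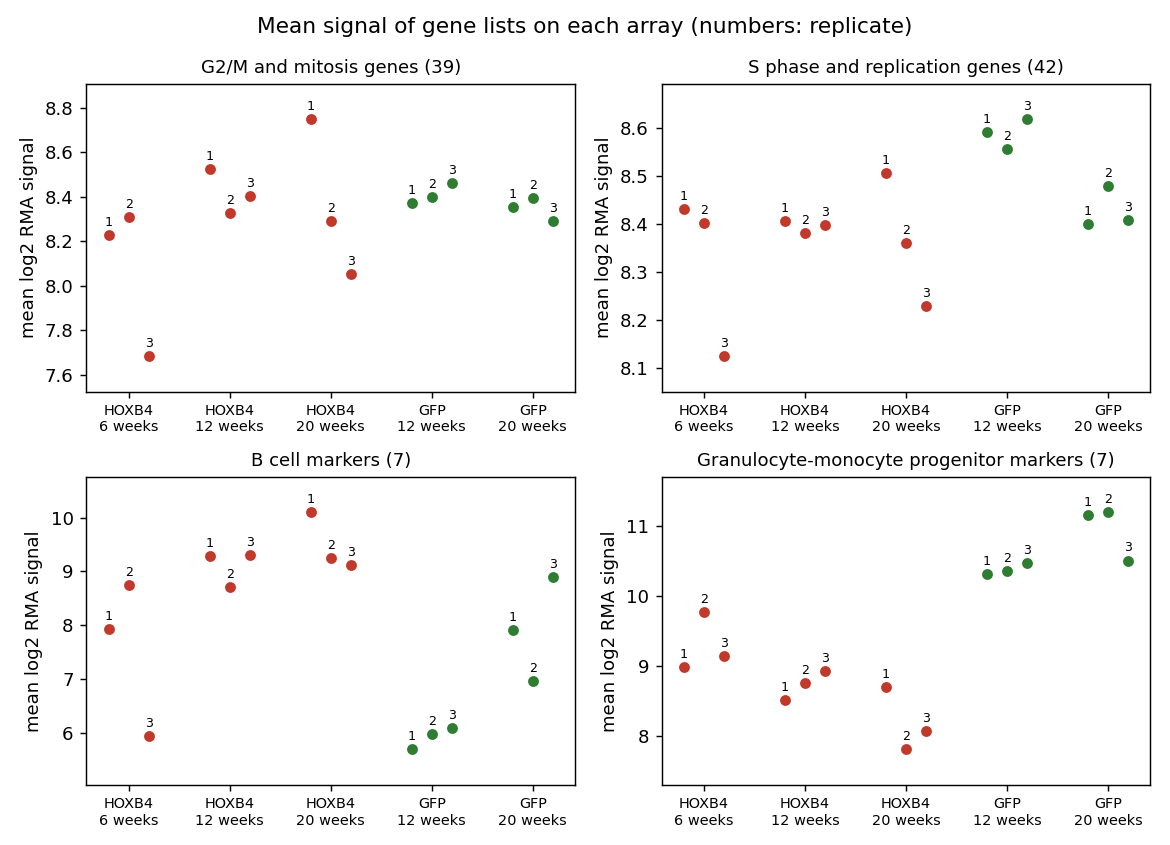
Mean log2 RMA signal of 4 gene lists on each array, labelled by replicate number (red, HOXB4 cells; green, GFP cells). HOXB4 6-week replicate 3 is low for the mitosis genes and B cell markers, and HOXB4 20-week replicate 1 is high for both.

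Genes that act beside the list, 163 in 6 lists, were counted for comparison. In HOXB4 against GFP cells at 12 weeks, limma called 0 of the 163 higher and 2 lower (0% and 1.23%, against 1.82% and 2.2% of all genes). At 20 weeks 7 were called higher and 1 lower (4.29% and 0.613%, against 3.77% and 5.18% of all genes). At 12 weeks 35 of 42 replication genes were lower in HOXB4 than in GFP cells, with a median of -0.22 and 0 called by limma, while 10 had an unadjusted p under 0.05, all lower. The 3 arrays stood apart in 21 of the 42 on the lower side, against 20.5% of all genes. Genes at large leaned the same way in this comparison, since 32.4% of the bright genes were higher in HOXB4 cells, with a median of -0.11. The mitosis list had 19 higher and 20 lower, and the difference between the lists was not tested. At 20 weeks 27 of the 42 replication genes were lower, with a median of -0.10, and 3 were called higher, where 3.77% of all genes were. These were the replication kinase Cdc7, the origin-binding protein Orc1 and the methylation maintenance factor Uhrf1.

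Of 40 other genes of the spindle, mitotic entry and cytokinesis, Pkmyt1, the kinase that holds Cdk1 inactive until mitosis, fell at 12 weeks. It read 7.72, 7.32 and 7.48 in HOXB4 cells and 8.39, 8.41 and 8.22 in GFP cells, without overlap, a difference of -0.84 ± 0.14 (adjusted p = 0.006251). At 20 weeks Aspm and Spag5, both proteins of the spindle poles, were higher in HOXB4 than in GFP cells. Aspm read 9.02, 8.67 and 8.43 in HOXB4 cells and 7.89, 8.17 and 7.98 in GFP cells, a difference of 0.69 ± 0.15 (adjusted p = 0.009876). Spag5 differed by 0.48 ± 0.14 (adjusted p = 0.04315).

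Of 30 other kinetochore genes, Cenpq fell at 12 weeks by 0.62 on the log2 scale (adjusted p = 0.01512) and 22 were lower. At 20 weeks 0 of them were called by limma, with an unadjusted p under 0.05 for 1 in each direction. Of 21 genes of cohesin, condensin and separase, 0 were called by limma at 12 weeks, with an unadjusted p under 0.05 for 1 higher and 2 lower. At 20 weeks the cohesin acetyltransferase Esco2 (0.84 ± 0.19, limma, adjusted p = 0.01207) and the cohesin regulator Pds5a were higher in HOXB4 than in GFP cells. The cohesin release factor Wapl was lower (-0.52 ± 0.13, limma, adjusted p = 0.01919). Pds5a averaged 9.14, 9.01 and 9.12 in HOXB4 cells at 6, 12 and 20 weeks, and 9.08 and 8.77 in GFP cells at 12 and 20 weeks. Of 15 genes of the anaphase-promoting complex 0 passed against GFP cells by limma, with an unadjusted p under 0.05 for 1 lower at 12 weeks and 1 higher at 20 weeks. Of 15 regulators of mitotic promoters 0 passed either, with an unadjusted p under 0.05 for 1 higher and 2 lower at 12 weeks and 1 lower at 20 weeks.

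Over time in HOXB4 cells, most neighbouring lists leaned the same way as the mitosis list, and so did bright genes at large. Of the bright genes 63.1% were higher at 12 and 62.1% at 20 against 6 weeks, with medians of 0.10 and 0.09. At 12 against 6 weeks 19 of 30 kinetochore genes were higher, with a median of 0.08. So were 12 of 21 genes of cohesin, condensin and separase, with a median of 0.06. At 12 against 6 weeks 13 of 15 genes of the anaphase-promoting complex were higher, with a median of 0.24, and 29 of 40 other spindle, entry and cytokinesis genes, with a median of 0.17. At 20 against 6 weeks the same counts were 13 of 15 and 29 of 40, with medians of 0.29 and 0.22, while the replication genes had medians of 0.03 and -0.02 at 12 and 20 against 6 weeks. Of the 163 genes, 1 was called at 12 against 6 weeks, the centromere protein gene Cenpl, which rose (0.83 ± 0.19, adjusted p = 0.03986). At 20 against 6 weeks 7.48% of the bright genes were called, in either direction. Of the 163 genes, 9 rose there and 0 fell (5.52% and 0%, against 3.3% and 1.36% of all genes). They were Chaf1b, Aspm, Spag5, Cdkn3, Cenpl, Cenpn, the MuvB subunit Lin9, and the pocket proteins Rbl2 and Rb1, which restrain cell cycle genes. Rb1 read 6.85, 6.84 and 6.86 at 20 weeks and 6.39, 6.22 and 5.39 at 6 weeks, a difference of 0.85 ± 0.21 (adjusted p = 0.03541). These genes passed in the same comparison in which Foxm1 did. In GFP cells 1 gene of these lists passed between the times, Chaf1b, a histone chaperone of replication, which was lower at 20 weeks (-0.59 ± 0.12, adjusted p = 0.01787).

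Second probe sets show how far a gene's reading depends on the probe set chosen. A further 37 probe sets target 24 of the 39 genes, and their difference between vectors had the sign of the brightest probe set in 19 of 37 at 12 weeks and 20 of 37 at 20 weeks. At 12 against 6 weeks 26 of 37 had the same sign, with a median of 0.13. When all named probe sets were tested, 1 further probe set of Hmmr, a receptor and spindle protein, passed at 12 weeks against GFP cells, at 0.52 ± 0.13 (adjusted p = 0.0491), where the brightest differed by 0.16 ± 0.25. A second probe set of Pttg1, the securin that holds separase, passed at 12 against 6 weeks (0.93 ± 0.20, adjusted p = 0.03266) and at 20 against 6 weeks (1.24 ± 0.20, adjusted p = 0.005821), where the brightest differed by 0.06 and -0.06. The probe sets of a gene can target different transcript ends, and which of them reads the gene correctly was not tested.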

How the data were processed

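The authors' deposited table holds log2 expression values of 45141 probe sets on 15 arrays, which the submitters' processing notes credit to RMA and Partek 6.5. Per the labels' protocols, 20 ng of RNA were amplified with NuGEN reagents. For any further filter or scaling the sources used here name none. Precision is limited by how many arrays there are, and detection calls were not used. Sample titles give 20 weeks where the series text gives 24. The titles were used.

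Probe sets were named by the platform annotation: 28898 had 1 symbol, 551 several and 15692 were not listed. Of those with 1 symbol, 28689 matched GRCm38.p6 by gene identifier. The brightest probe set of each of 17097 genes entered 1 limma 3.58.1 model (R 4.3.3, a mean per group, eBayes, 10 residual and 4.55 prior degrees of freedom). Two-sided p-values were adjusted by Benjamini-Hochberg over all genes in each of 7 comparisons, and tests were tried on simulated data. With 3 against 3 arrays an exact permutation test cannot go below 0.1, so adjusted p-values rest on the model. Arrays standing apart means that the ranges of 2 groups do not overlap. Shares over all genes are given for adjusted calls and for arrays standing apart, and not for unadjusted p-values.

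The members and lists were chosen with earlier results of these data known, and the grouping by role was made after the values were seen. Genes named are all that passed, a set named whatever its values, the 3 largest and 3 smallest differences of a comparison, and up to 4 genes of each other list. That set was Mki67, Top2a, Ccna2, Cdk1, Plk1, Aurkb, Birc5, Foxm1, Cdc20, Cks2 and Bub3, and its values are not given for every comparison. Mad2l1, Ect2, Kif11, Hmmr, Pttg1, Ccnb2 and Cdca3 were also named after their values were seen where they fell outside these rules. Alternatives were a fit on the compared groups, a filter on the dimmest 1 in 3 genes, other probe set rules, other normalisations and moderations, array weights, a replicate block and leaving out each array.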

Additional observations from a re-analysis of the deposited data

Results flagged for a closer look

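No member of the mitosis list was flagged. Among the cell type markers, 6 genes had a vector effect that differed between 20 and 12 weeks, by the test of the difference itself (limma, 3 arrays in each of 4 groups). Values are the HOXB4 minus GFP log2 difference at 20 weeks minus that at 12 weeks. They were -3.89 for Ltf (adjusted p = 0.002503), -5.55 for Lcn2 (adjusted p = 0.009951), -4.66 for Camp (adjusted p = 0.01217) and -3.79 for Cd177 (adjusted p = 0.002503), all neutrophil granule or surface genes. They were -2.42 for Lyz2, the myeloid lysozyme (adjusted p = 0.0001759), and -3.96 for Ighm, the immunoglobulin heavy chain (adjusted p = 0.002545). These arrays are the same on which the mitosis genes were read, and 0 of the 39 had an unadjusted p under 0.05 in that test. The test does not show in which cells a gene changed. From 12 to 20 weeks the neutrophil markers changed by a median of 3.11 in GFP cells and -1.51 in HOXB4 cells. The medians were 1.01 and -0.06 for the monocyte and macrophage markers, Lyz2 among them, and 1.77 and 0.41 for the B cell markers.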

How the results depend on the processing

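The median difference of the list depended on single arrays. Leaving out 1 array, it lay between -0.04 and 0.07 between vectors at 12 weeks, -0.19 and 0.16 between them at 20 weeks, 0.05 and 0.41 for 12 against 6 weeks, 0.08 and 0.42 for 20 against 6 weeks, -0.23 and 0.11 for 20 against 12 weeks, and -0.07 and -0.01 in GFP cells. Counts of members called, each by its brightest probe set unless a setting says otherwise, moved too. At 12 weeks 2 were called by a fit on the compared groups and 3 with array weights, at 20 weeks 1 with quantile normalisation, and 0 to 1 with 1 array left out. For 12 against 6 weeks 0 were called with the compared groups alone, quantile normalisation, no moderation or array weights, 2 with median centring, and 0 to 9 with 1 array left out. For 20 against 6 weeks 0 were called with those 4 settings, the mean of probe sets, a variance trend, or all named probe sets tested (where the brightest of each gene is counted; a further probe set of Pttg1 did pass), and 0 to 7 with 1 array left out. No member was called under any alternative for the difference of effects, for 20 against 12 weeks in HOXB4 cells or in GFP cells. The replicate block gave 0 members called at 12 against 6 and at 20 against 6 weeks, where the fit without it gave 1 each, and changed no other count of members. Deviations of same-numbered arrays correlated between -0.167 and 0.115. Such correlations cannot show whether same-numbered arrays share a source, and the labels name no batch. Single members were followed only where the main fit gave an unadjusted p under 0.05. Of these runs 28 of 204 with 1 array left out and 18 of 340 under other settings crossed the adjusted threshold, and none changed direction. The other members were not followed singly. Counts over all genes ranged widely, over both kinds of alternative: 214 to 2791 for the main 688 at 12 weeks, 715 to 2408 for 1530 at 20 weeks, 22 to 563 for 87 in the difference, 0 to 923 for 268 at 12 against 6 weeks, 0 to 108 for 43 at 20 against 12 weeks, 1 to 1165 for 796 at 20 against 6 weeks, and 192 to 1892 for 406 in GFP cells. The causes were not tested. With 3 arrays a group and no detection calls, low values may be background.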
